A study of Mus musculus with 6 samples.

Results

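Macrophages carry a small set of transcription factors that set their identity or state. Among them, 9 genes chosen by name are described here: Spi1, Cebpa and Irf8, which establish the lineage, Maf and Zeb2, which act in mature macrophages, and Klf2, Klf4, Bhlhe40 and Mitf, which tune the state of the cell. All 9 were found among the 36333 genes listed. The cells were grown from C57BL/6 mouse bone marrow for 7 days with macrophage colony-stimulating factor at 10 ng/mL. An addition of the factor on day 3 is recorded. They were replated at 250000 cells per well. One group of 3 libraries came from cells given ethanol vehicle and the other of 3 from cells given 100 µM stearic acid, a saturated fatty acid, each for 24 h. Both groups are therefore cultured cells of the same strain that had seen the same growth factor, and the labels do not say whether replicates were separate animals or wells, so p-values measure the spread between these libraries, which may be technical.

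PU.1, the ETS-family protein encoded by Spi1, opens enhancers in macrophage precursors together with the bZIP protein C/EBPα (Cebpa). IRF8 binds beside PU.1 at composite DNA elements and is needed for monocyte development. MAF is a bZIP protein that holds macrophages in a differentiated state, and ZEB2 is a zinc-finger repressor that maintains the identity of tissue macrophages. KLF2 and KLF4 are zinc-finger proteins known for limiting inflammatory genes, BHLHE40 is a basic helix-loop-helix repressor whose known targets include Il10 and Maf, and MITF, with its relatives TFEB, TFE3 and TFEC, drives lysosome and osteoclast genes.

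The libraries held 58.1 to 80.8 M reads or read pairs (M, 1e+06), a depth recovered from the deposited values. Each kilobase of the members was covered by 331 to 9797 of these, so all were well above the lowest measurable level. All 8 macrophage markers checked (Csf1r, Adgre1, Cd68, Itgam, Mertk, Fcgr1, Lyz2 and Cd14) reached the filter of a mean of 1 TPM, with a summed level of 32651 to 33565 TPM in vehicle and 23296 to 28828 TPM with stearic acid. Adgre1, Itgam, Fcgr1 and Lyz2 fell by the test described next and Cd68 rose. Lyz2 made up most of that sum, and its reads may be shared with the near-identical Lyz1. Markers of neutrophils summed to at most 7.31 TPM, of dendritic cells to at most 3.58 TPM, of lymphoid cells to at most 3.26 TPM, of stromal cells to at most 4.73 TPM and of mast and erythroid cells to at most 0.298 TPM in any library. In bulk RNA, fewer cells of a type and less RNA per cell cannot be told apart.

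Groups were compared with limma on log2(TPM + 1), and a gene passed at an adjusted p under 0.05 over all genes tested. With stearic acid, 3 of the 9 factors passed and 6 did not. Bhlhe40 rose 2.30-fold in mean TPM, Klf4 rose 1.31-fold, and Maf fell to 0.615 of its vehicle mean. The lineage-establishing factors Spi1, Cebpa and Irf8 had mean levels of 1.06 to 1.15 times vehicle and did not pass. Across all 11551 genes tested, 24.7% passed (12.8% higher and 11.9% lower), so 3 of 9 is close to the share of all genes. The median difference of the 9 was 0.10 on the log2(TPM + 1) scale, against -0.03 for all tested genes.

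**Figure D1:**
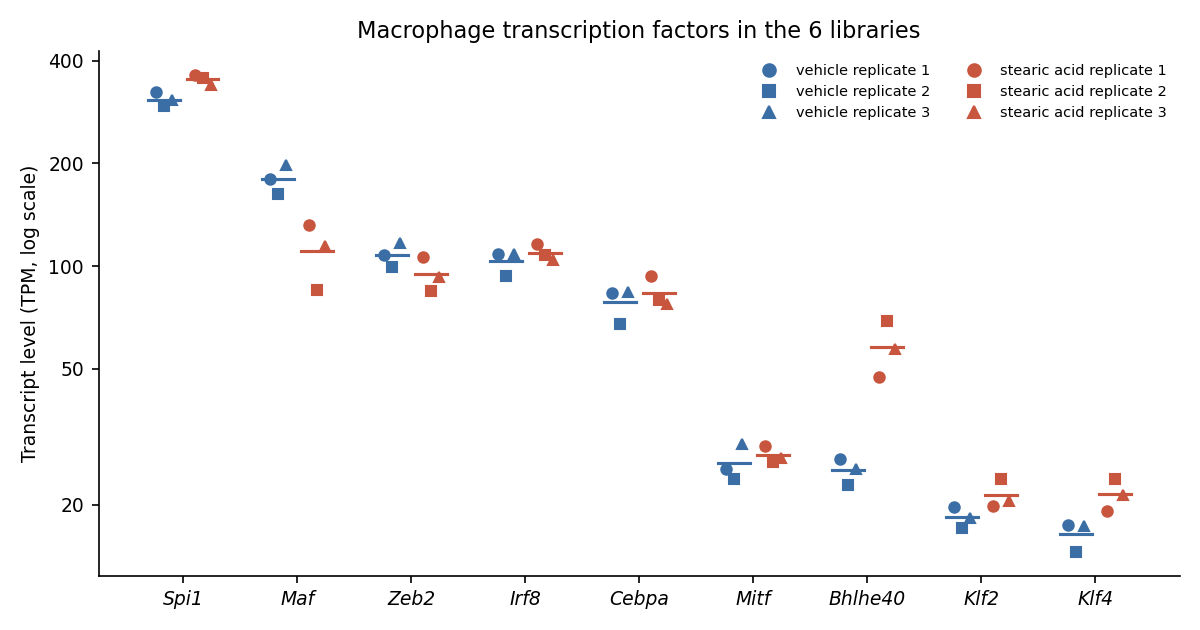
Transcript level in TPM (log axis) of the 9 transcription factors in each of the 3 vehicle (blue) and 3 stearic acid (red) libraries; symbols give the replicate and bars the group mean. Bhlhe40 lies at 47.4 to 68.9 TPM with stearic acid against 22.8 to 27.2 TPM in vehicle, Maf is lower in every stearic acid library, and the points of Cebpa, Irf8, Mitf and Zeb2 overlap.

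The factors spanned a 17.4-fold range of mean level. In vehicle the order was Spi1, Maf, Zeb2, Irf8, Cebpa, Mitf, Bhlhe40, Klf2 and Klf4. The ranges of Zeb2 and Irf8 overlapped, as did those of Mitf and Bhlhe40 and those of Klf2 and Klf4, so the ranges do not order these neighbours. Within each vehicle library Klf2 was above Klf4, by a small margin (log2 ratio of Klf4 to Klf2 of -0.17, -0.22 and -0.07). With stearic acid Bhlhe40 stood above Mitf with no overlap (47.4 TPM at the lowest against 29.7 TPM at the highest). Maf, the second most abundant factor in vehicle and apart there from Zeb2, now overlapped Irf8.

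Spi1, the most abundant of the 9 (NCBI gene 20375, chromosome 2, 91082374 to 91115759, plus strand, GRCm38), was at 323, 294 and 306 TPM in vehicle replicates 1 to 3 and at 364, 355 and 339 TPM in stearic acid replicates 1 to 3. All 3 treated libraries lay above all 3 controls, but the difference was small. On the log2 scale it was 0.20 (SE 0.07, 95% confidence interval 0.05 to 0.35), with a limma adjusted p of 0.054, which did not pass. It passed with RPKM values (adjusted p = 0.028) and with median-of-ratios scaling (adjusted p = 0.033), and in none of the 6 refits on 5 libraries.

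Cebpa (gene 12606, chromosome 7, 35119293 to 35121928), the C/EBP factor that acts with PU.1, was at 83.3, 67.8 and 83.8 TPM in vehicle and 93.8, 79.5 and 77.4 TPM with stearic acid. The groups overlapped, and the log2 difference was 0.10 with a 95% confidence interval of -0.14 to 0.33 (limma adjusted p = 0.52). Irf8 (gene 15900, chromosome 8, 120736358 to 120756694) was at 108, 93.3 and 109 TPM in vehicle and 116, 108 and 104 TPM with stearic acid. Its groups overlapped too, with a log2 difference of 0.08 and an interval of -0.10 to 0.27 (limma adjusted p = 0.47). The intervals run from 0.905 to 1.26 times vehicle for Cebpa and from 0.932 to 1.20 times for Irf8, so changes within these bounds are not excluded.

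Maf (gene 17132, chromosome 8, 115703253 to 115706894, minus strand) was at 180, 163 and 198 TPM in vehicle and at 132, 85.4 and 115 TPM with stearic acid. Each treated library was below each control, and stearic acid replicate 2 was the lowest. The mean fell from 180 ± 17.8 to 111 ± 23.7 TPM (SD, n = 3 per group), a log2 difference of -0.71 (SE 0.15, limma adjusted p = 0.013). The fall did not pass without vehicle replicate 2 (adjusted p = 0.057), without vehicle replicate 3 (0.070) or without the filter on low values (0.062), and its size then was log2 -0.79, -0.64 and -0.71.

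Zeb2 (gene 24136, chromosome 2, 44983512 to 45117442, minus strand) was at 108, 99.7 and 117 TPM in vehicle and 107, 84.6 and 93.1 TPM with stearic acid. Stearic acid replicate 1 lay inside the vehicle range and the other two below it. The log2 difference was -0.19 (SE 0.10, limma adjusted p = 0.17), and it passed only without stearic acid replicate 1 (adjusted p = 0.017) among the 12 alternatives. An antisense gene, Zeb2os, overlaps Zeb2 on the opposite strand and fell by log2 0.31 (limma adjusted p = 0.040), from 28.8 ± 1.37 to 23.1 ± 2.63 TPM. The library kit kept strand, but whether the counting used it is not given, so reads of the pair cannot be told apart.

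Bhlhe40 (gene 20893, chromosome 6, 108660629 to 108666925, plus strand) had the largest difference of the 9. It was at 27.2, 22.8 and 25.5 TPM in vehicle and at 47.4, 68.9 and 57.1 TPM with stearic acid. The lowest treated library was well above the highest control. The group means were 25.2 ± 2.22 and 57.8 ± 10.8 TPM, a rise of 1.15 on the log2 scale (SE 0.13, 95% confidence interval 0.86 to 1.45) with a limma adjusted p of 0.0012. It passed in all 12 alternatives, with adjusted p up to 0.027. Its relative Bhlhe41, a repressor of the same kind, was at 22.3, 19.9 and 21.0 TPM in vehicle and 34.9, 44.3 and 36.5 TPM with stearic acid, and rose by log2 0.84 (SE 0.10, limma adjusted p = 0.0016).

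The log2 ratio of Bhlhe40 to Maf within each library was -2.68, -2.78 and -2.91 in vehicle and -1.46, -0.30 and -0.99 in stearic acid replicates 1 to 3. The difference was 1.87 and the groups did not overlap. The exact two-sided permutation p was 0.1, the smallest that 3 against 3 allow (Benjamini-Hochberg p of 0.13 over the 4 ratios computed, 3 of which are given). Every treated library had more Bhlhe40 and less Maf than every control. That fixed the outcome for the ratio, so its p is not a separate test and the ratio is a description. In vehicle Maf was several times more abundant than Bhlhe40, and in stearic acid replicate 2 the levels were 85.4 and 68.9 TPM.

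Klf4 (gene 16600, chromosome 4, 55527137 to 55532475, minus strand) was at 17.4, 14.5 and 17.3 TPM in vehicle and 19.2, 23.8 and 21.3 TPM with stearic acid. The groups did not overlap. The means of 16.4 ± 1.63 and 21.5 ± 2.32 TPM differed by log2 0.37 (SE 0.10), which passed (limma adjusted p = 0.033). This call rests on the whole set of libraries: it held without stearic acid replicate 1 and was lost in each of the other 5 refits on 5 libraries (adjusted p of 0.065 to 0.10), and without the filter (0.093).

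Klf2 (gene 16598, chromosome 8, 72319062 to 72321654) was at 19.7, 17.1 and 18.3 TPM in vehicle and 19.9, 23.8 and 20.5 TPM with stearic acid. The groups were apart only narrowly, at 19.7 against 19.9 TPM, and the log2 difference of 0.21 (SE 0.09, limma adjusted p = 0.12) passed only without stearic acid replicate 1 (0.043). The Klf4 to Klf2 log2 ratio was -0.15 ± 0.07 in vehicle and 0.00 ± 0.05 with stearic acid, a difference of 0.16 (exact two-sided permutation p = 0.1, Benjamini-Hochberg p of 0.13). The Spi1 to Cebpa ratio differed by 0.10 (exact two-sided permutation p = 0.2, Benjamini-Hochberg p of 0.2).

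The stretches of DNA before the starts of the 2 KLF genes are shown because BHLHE40 and MITF bind the E-box CACGTG, and Klf4 has this motif where Klf2 does not. They are the 250 bases before each RefSeq start on GRCm38.p6, 5′ to 3′ on the gene's own strand, with CACGTG in capitals (Klf4 chr4:55532476-55532725, minus strand; Klf2 chr8:72318812-72319061, plus strand).
Klf4: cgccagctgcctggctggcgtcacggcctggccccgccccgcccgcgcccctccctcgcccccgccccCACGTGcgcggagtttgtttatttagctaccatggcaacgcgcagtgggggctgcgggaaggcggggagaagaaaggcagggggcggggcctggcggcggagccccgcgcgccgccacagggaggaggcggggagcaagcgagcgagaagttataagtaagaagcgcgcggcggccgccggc
Klf2: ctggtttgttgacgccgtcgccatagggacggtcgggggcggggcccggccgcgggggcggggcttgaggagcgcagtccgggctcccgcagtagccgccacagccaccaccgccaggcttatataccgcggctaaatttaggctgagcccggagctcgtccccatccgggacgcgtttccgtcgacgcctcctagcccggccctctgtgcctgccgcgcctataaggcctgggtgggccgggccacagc
Both windows were rich in G and C (74.0% and 71.2%, against a median of 52.4% over 32851 windows). The E-box reads the same on both strands, and 6.02% of all such stretches of 250 bases hold it. Those stretches were not matched to the Klf4 window in G and C content. Among the 12 windows of the 6 members that matched the table (Klf2, Klf4, Cebpa, Irf8, Mitf and Zeb2), it was found in that of Klf4 alone, starting 182 bases before the start. Spi1, Maf and Bhlhe40 did not match. Short motifs of PU.1, C/EBP, ZEB, KLF and MAF were searched too, and each was found in some window of the 6 members. The KLF motif CACCC was found in the Klf2 window and not in that of Klf4, and 52.0% of all such stretches hold it. A match is a description of the letters and does not show binding.

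Mitf (gene 17342, chromosome 6, 97807002 to 98021360) was at 25.4, 23.8 and 30.03 TPM in vehicle and 29.7, 26.6 and 27.3 TPM with stearic acid. The groups overlapped, and the log2 difference was 0.08 with a 95% confidence interval of -0.14 to 0.30 (limma adjusted p = 0.56). The gene has several alternative first exons, and these gene-level values do not separate them. Among its relatives, Tfeb was at 31.1, 24.0 and 28.9 TPM in vehicle and 39.2, 35.4 and 34.5 TPM with stearic acid. Tfeb rose by log2 0.37 (SE 0.10, limma adjusted p = 0.031), a call kept in 3 of 6 refits on 5 libraries. Tfe3 (log2 0.00) and Tfec (log2 -0.15) did not pass.

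**Figure D2:**
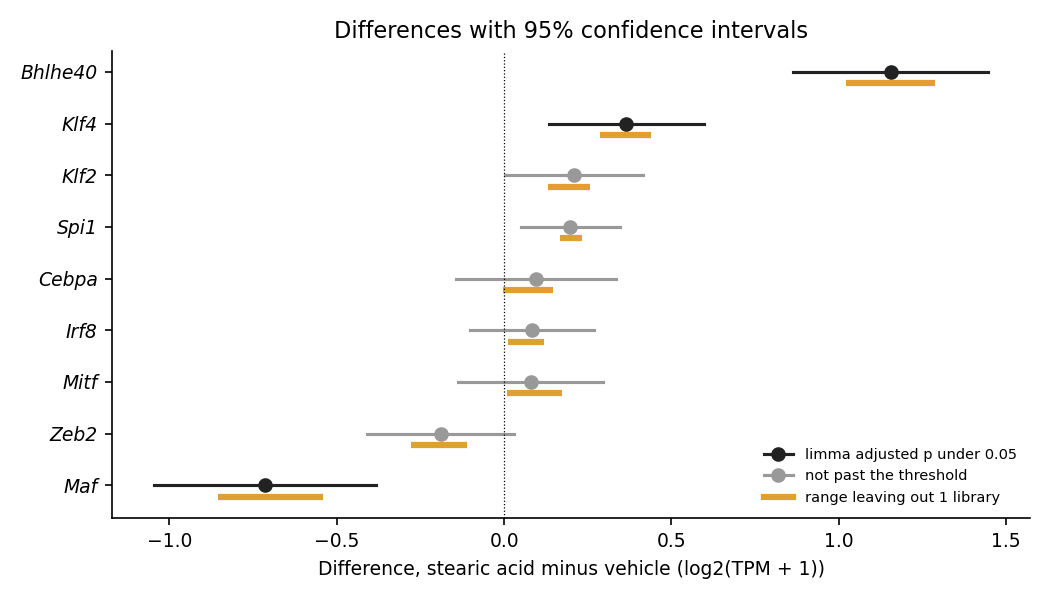
Difference between stearic acid and vehicle for each factor in log2(TPM + 1), with its 95% confidence interval from limma (line) and the range when 1 library is left out (orange). Bhlhe40 at 1.15, Klf4 at 0.37 and Maf at -0.71 passed the test (black) and the other 6 did not (grey).

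The treated libraries did not respond equally. In Bhlhe40, Klf4, Klf2, Maf and Zeb2, stearic acid replicate 2 lay farthest from the vehicle mean, replicate 3 next and replicate 1 nearest. For Bhlhe40 the distances were log2 1.42, 1.15 and 0.89 in that order, and for Maf they were -1.06, -0.64 and -0.44. Spi1, Cebpa, Irf8 and Mitf went otherwise, with replicate 1 the farthest from the vehicle mean, on the high side. Over all genes that passed, the median absolute difference followed the first order, at log2 0.60, 0.43 and 0.28, and so did the recovered depth of 76.4, 71.6 and 64.0 M. The part of depth in these differences was not tested.

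Vehicle replicate 2 had the lowest TPM of the vehicle libraries in all 9 factors. With RPKM values, and with median-of-ratios scaling, it was lowest in 7 of 9. Without it 1 factor passed, Bhlhe40, and without vehicle replicate 3 also 1, again Bhlhe40. Without stearic acid replicate 1 there were 5: Bhlhe40, Maf, Klf4, Klf2 and Zeb2. The groups did not overlap in 5 of the 9 factors (Spi1, Klf2, Klf4 and Bhlhe40 higher, Maf lower). Among all tested genes 44.6% had groups apart, 22.8% higher and 21.7% lower.

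**Figure D3:**
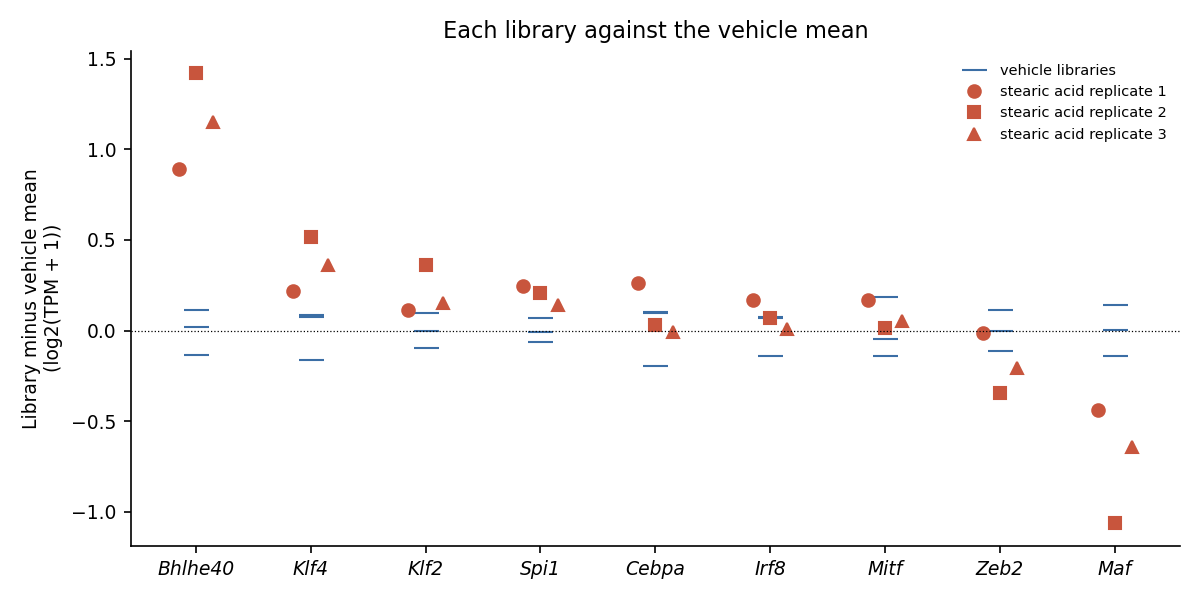
Each library's level minus the mean of the 3 vehicle libraries, in log2(TPM + 1), for the 9 factors; blue dashes are vehicle libraries and red symbols the 3 stearic acid replicates. Stearic acid replicate 2 (square) is farthest from 0 in Bhlhe40 (1.42) and Maf (-1.06), and replicate 1 (circle) is nearest in both.

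Many genes had profiles much like those of the factors that passed. For Bhlhe40 the closest over the 6 libraries were Ndrg4, Pgd and Ankrd13b (Pearson r of 0.9995, 0.9994 and 0.9994), for Maf they were Cdca2, Casp2 and Nde1 (0.9997, 0.9995 and 0.9994), and for Klf4 they were Rassf1, Micall2 and Setd6 (0.998, 0.997 and 0.997). A correlation of at least 0.95 was reached by 879, 1305 and 648 of 9565 compared genes for Bhlhe40, Maf and Klf4. The 6 libraries fall into a pair of groups, so these values are given as a description.

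Relatives of the 9 factors by DNA-binding family went both ways. Of 36 listed, 28 were tested, 10 rose and 5 fell, where 12.8% of all tested genes rose and 11.9% fell. The other 13 did not pass, and the median log2 difference was 0.03. Of the risers, 4 were KLF genes (of 8 tested) and 3 were the small MAF genes Maff, Mafg and Mafk, which lack the activating part of MAF itself. The 4 IRF genes that passed, Irf1, Irf4, Irf7 and Irf9, all fell, from 7 tested. Cebpb, the C/EBP factor known for inflammatory and stress responses, rose by log2 0.79 (SE 0.10, limma adjusted p = 0.0019), from 28.7 ± 3.03 to 50.5 ± 4.35 TPM. Maff rose from 0.893 ± 0.0832 to 2.53 ± 0.715 TPM (log2 0.88). Leaving out 1 library gave 4 to 11 rises and 0 to 9 falls, and there were 0 falls when the library dropped was stearic acid replicate 3 or any of the controls.

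Other regulators of myeloid cells were mostly not past the test. Of 36 tested, 9 rose, 3 fell and 24 missed the threshold (median log2 difference 0.09). The shares over all tested genes were 12.8% higher and 11.9% lower, with a median of -0.03. The smallest p-values were those of Atf3, a stress-induced repressor (155 ± 8.56 to 277 ± 21.0 TPM), Jund, an AP-1 subunit (17.5 ± 1.42 to 32.8 ± 2.02 TPM), and Egr2, a zinc-finger factor of alternative activation (1.13 ± 0.310 to 4.45 ± 0.866 TPM). Runx1, a partner of PU.1, was at 32.6 ± 2.15 and 33.4 ± 1.98 TPM, and Cbfb, the shared subunit of RUNX proteins, fell by log2 0.25 (limma adjusted p = 0.026), from 192 ± 5.66 to 161 ± 7.62 TPM. None of the 3 falls was left by limma when any library other than stearic acid replicate 1 was dropped, and the rises ranged from 4 to 14.

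Genes with known control by MAF were lower. Of 12 listed, 10 were tested and 9 fell; the exception was Folr2, a folate receptor (log2 -0.05, limma adjusted p = 0.59). The median was -0.59, against -0.03 for all tested genes, of which 11.9% fell. The list was chosen with earlier results of these data known, so the count is a description. Among the 9 are C1qa, C1qb and C1qc, which encode parts of the same complex. None rose by limma, nor at an unadjusted p under 0.05. Stab1, a scavenger receptor, was at 355, 307 and 353 TPM in vehicle and 244, 161 and 190 TPM with stearic acid (log2 -0.78, SE 0.14, limma adjusted p = 0.0073). C1qb, a subunit of complement C1q, was at 2793, 2682 and 2563 TPM and then 2109, 1404 and 1724 TPM (log2 -0.64). Adgre1, which encodes F4/80, fell by log2 0.59. In these 3 genes, as in Maf, stearic acid replicate 2 was the lowest and replicate 1 the highest treated library. The order was not particular to them. Over all genes that passed, the median absolute difference was log2 0.60, 0.43 and 0.28 in stearic acid replicates 2, 3 and 1. Dropping vehicle replicate 1, 2 or 3 left 5, 2 or 0 of the 9 falls, dropping stearic acid replicate 3 left 5, and the median stayed between -0.44 and -0.73.

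Lysosome and osteoclast genes with known control by MITF or its relatives were higher. Of 18 tested, 12 rose and 6 missed the threshold. None fell by limma, nor did any at an unadjusted p under 0.05. The median was 0.39, and of all tested genes 12.8% rose. This list too was chosen with earlier results of these data known. Gpnmb, a lysosomal membrane glycoprotein, was at 1895, 1639 and 1707 TPM in vehicle and 3346, 3718 and 3326 TPM with stearic acid (log2 0.99, SE 0.08, limma adjusted p = 0.00028). Atp6v0d2, a proton pump subunit, rose from 25.4 ± 4.56 to 82.6 ± 11.2 TPM (log2 1.67, SE 0.14), and Sqstm1, the autophagy receptor p62 and also a known NRF2 target, from 634 ± 38.9 to 1671 ± 352 TPM. Between 9 and 12 of them rose in refits on 5 libraries. Among the factors themselves, Tfeb passed and Mitf did not.

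Genes linked to the lineage factors are read against the 12.8% of all tested genes that rose, the 11.9% that fell and the median of -0.03. Lyz2, Cybb and Mrc1 each stand in more than 1 of the lists. Of 17 genes linked to PU.1, 4 fell (Itgam, Fcgr1, Cybb and Lyz2), 2 rose (Cd68 and Csf2ra) and 11 missed the threshold (median -0.12). Csf1r, the receptor for the growth factor in the medium, was at 2049 ± 175 and 1623 ± 256 TPM and did not pass (log2 -0.34, limma adjusted p = 0.055), nor did Cd14 (log2 0.11). Mertk, a macrophage marker outside this list, did not pass either (log2 -0.56, limma adjusted p = 0.074). Without stearic acid replicate 1 Csf1r and Mertk both passed, at adjusted p of 0.00069 and 4.3e-05 by limma. Cd68 rose from 1999 ± 26.5 to 2459 ± 127 TPM, and Fcgr1, a high-affinity Fc receptor, fell from 133 ± 2.32 to 102 ± 9.80 TPM. Dropping any of the controls left 0 of the 4 falls and 0 of the 2 rises, and dropping stearic acid replicate 3 left 1 and 0.

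Of 11 tested genes linked to IRF8, 5 fell (against 11.9% of all tested genes), and none rose by limma, nor at an unadjusted p under 0.05. The median was -0.40. The 5 were Tlr9, a DNA sensor (48.8 ± 6.41 to 28.0 ± 10.4 TPM), Ciita, the MHC class II transactivator (2.57 ± 0.375 to 1.07 ± 0.808 TPM), Il18 (log2 -0.53), the oxidase subunit Cybb (log2 -0.54) and Naip6 (log2 -0.41), whose reads may be shared with its near-identical copies. Dropping vehicle replicate 1, 2 or 3 left 1, 0 or 0 of these falls, and dropping stearic acid replicate 3 left 0. Of 5 tested C/EBP-linked genes Csf3r, the G-CSF receptor, and Lyz2 fell. Of 6 KLF-linked genes Mrc1, the mannose receptor, fell from 57.2 ± 3.22 to 25.2 ± 11.7 TPM and S1pr1 by log2 0.35. Both C/EBP-linked falls were lost when any of the controls or stearic acid replicate 3 was dropped. The KLF-linked count of falls became 1, 0 and 0 without vehicle replicates 1 to 3, and 1 when stearic acid replicate 2 or 3 was dropped. Arg1, in both lists, went the other way from 0.765 to 1.51 TPM but did not pass (log2 0.48, limma adjusted p = 0.055). By limma at an unadjusted p under 0.05, 1 C/EBP-linked gene was higher and 2 lower. Among the KLF-linked genes 1 was higher and 3 lower. Of 3 tested ZEB2-linked genes 0 passed by limma, and 2 had an unadjusted p under 0.05: Cdh1, which encodes E-cadherin (log2 -0.35), and Id2 (log2 0.16).

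**Figure D4:**
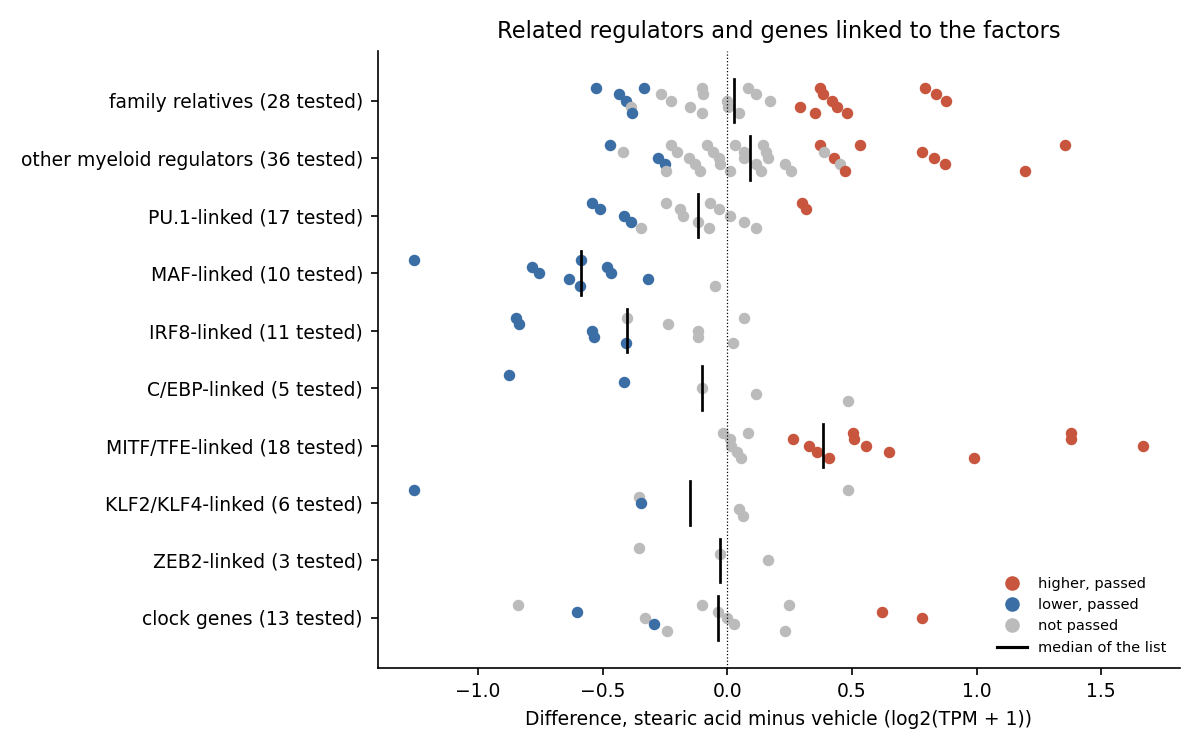
Difference between stearic acid and vehicle in log2(TPM + 1) for each tested gene of the 10 lists of relatives, other regulators and linked genes; red and blue points passed the test and grey did not, and black bars are list medians. The MAF-linked genes lie to the left (median -0.59) and the MITF/TFE-linked genes to the right (median 0.39). The lists were chosen with earlier results of these data known.

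Tested markers of monocytes were lower, where 11.9% of all tested genes fell. Of 5 listed, 2 were tested and both fell: Ccr2, a chemokine receptor of monocytes, by log2 1.26 (limma adjusted p = 0.012), from 20.9 ± 2.79 to 8.62 ± 3.94 TPM, and Spn, which encodes CD43, from 77.2 ± 9.49 to 44.6 ± 11.2 TPM (log2 -0.80). The summed level of the 5 was 85.7 to 109.6 TPM in vehicle and 38.9 to 69.3 TPM with stearic acid. Neither fall passed when vehicle replicate 2 or 3 was dropped. Most falls over all tested genes were lost then too, from 1374 to 166 without vehicle replicate 2 and to 142 without vehicle replicate 3. The part of monocytes in the levels of the factors was not tested. The only neutrophil marker past the filter, S100a8, rose from 3.33 ± 1.19 to 6.41 ± 0.467 TPM; the 10 listed summed to 2.51 to 4.81 TPM in vehicle and 6.46 to 7.31 TPM with stearic acid. Of the 8 lymphoid markers, Cd3e, Cd3g and Nkg7 were listed at 0 in all libraries, and Cd79b, the only one tested, fell (summed levels of 2.94 to 3.26 and 1.69 to 2.05 TPM).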

How the data were processed

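Polyadenylated RNA from 6 samples of mouse macrophages was sequenced, 3 per group. The authors deposited a table per library with a TPM value (transcripts per 1e+06, summing to the same total in each library) and an RPKM value (reads per kilobase per 1e+06 reads) for 36333 genes, per the file headers. The submitters' processing notes name DRAGEN and the builds GRCm38 and mm10. The annotation, the counting rule and whether strand was used in counting were not given in the sources used here.

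From the TPM values, limma 3.58.1 (R 4.3.3, limma-trend) was fitted on log2(TPM + 1) over the 11551 genes whose mean reached 1 TPM. Treatment was the only term, with Benjamini-Hochberg adjustment over all tested genes and a threshold of 0.05. The fit was tested on simulated data with independent noise in each gene. That setting lacks the differences between whole libraries seen here, so it gives no error rate for these data. A difference on this scale understates the change of low genes, and TPM is a share of the library. Depth was recovered from the steps between low RPKM values and the lengths of small nucleolar RNA genes. No counts were rebuilt. A related gene and its ratio to a member are not reported here.

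The 9 members and 17 gene lists (207 distinct genes) were chosen with earlier results of these data known. Named were the members, the macrophage markers, and from each list the 3 called genes with the smallest p or all of 5 or fewer. For each called member, the 3 tested genes most like it were named. Other genes named were chosen after their values were seen. Alternatives were another pseudocount (0.1 TPM), no filter and a filter of 5 TPM, RPKM, median-of-ratios scaling, a replicate term and leaving out each library. Positions and promoter windows are from RefSeq (GRCm38.p6), and overlaps from GENCODE on GRCm38.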

Additional observations from a re-analysis of the deposited data

How the results depend on the processing

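The count of 3 factors past the threshold was 1 with no filter on low values and 1 to 5 when 1 library was left out. Over all tested genes the count of 2856 was 1027 with no filter and 550 to 5010 when 1 library was left out, and among distinct genes of the 10 lists the count of 63 was 21 and 18 to 91. Of 108 values of the 9 factors under alternatives, 94 kept direction and side of the threshold, 9 lost it, 4 gained it and 1 turned sign: Cebpa was at log2 -0.0042 without vehicle replicate 2, the lowest of its values without 1 library, which reached 0.15. The cause was not tested. Among the 94 are values of factors that had not passed at first and still did not. Of the factors that had passed, Bhlhe40 did so in all 12 alternatives, Maf in 9 and Klf4 in 6. The split of all calls was 51.9% higher with all 6 libraries and 69.8%, 77.4% and 44.4% without vehicle replicate 2, vehicle replicate 3 and stearic acid replicate 1. It was 65.4% with no filter and 55.6% with median-of-ratios scaling.

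Replicate numbers are shared by the groups, but same-numbered libraries deviated together only weakly (correlations of 0.07, 0.29 and 0.04 for numbers 1 to 3), and vehicle replicate 3 correlated best with stearic acid replicate 1 (0.27). With the replicate block 3 factors passed, 75 list genes and 3638 genes in all. Csf1r and Mertk, macrophage markers, passed with the block (limma adjusted p of 0.013 and 0.012). The block left the 3 ratios at 0.16, 1.87 and 0.10, where the smallest exact p it allows is 0.25.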

Other observations

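Clock genes, a known target set of BHLHE40, did not move one way. Of 13 tested, 2 rose, 2 fell and 9 did not pass, with a median log2 difference of -0.04 (all tested genes: 12.8% rose, 11.9% fell, median -0.03). Nfil3, a repressor of clock output, rose by log2 0.78 (limma adjusted p = 0.0038), from 2.63 ± 0.223 to 5.26 ± 0.817 TPM, and Cry1, a core repressor, from 5.71 ± 0.275 to 9.42 ± 1.77 TPM (log2 0.62). The Cry1 rise missed the threshold without vehicle replicate 2 (limma adjusted p = 0.064), without vehicle replicate 3 (0.051) and with no filter (0.060). Arntl, a core activator, fell by log2 0.30 and Per3 by log2 0.60. Per3 passed only narrowly (limma adjusted p = 0.049). Its groups overlapped, with 5.89 TPM in stearic acid replicate 1 against 5.77 TPM in vehicle replicate 2. With a pseudocount of 0.1 TPM 1 fall was left, that of Arntl. The 2 falls passed in only 1 of the 6 fits that left out 1 library, the one without stearic acid replicate 1. Sampling was at a single time, so phase was not measured.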
